A study of Homo sapiens with 6 samples.

Results

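Breast cancer stem cell markers are genes used to sort or score the small share of tumour cells that start new tumours on transplantation. A set of 7 such genes (CD44, CD24, PROM1, ALDH1A1, ALDH1A3, SOX9 and MYC) was followed in MDA-MB-231 cells, a triple-negative breast cancer line (no estrogen receptor, progesterone receptor or HER2 amplification), with and without overexpression of the RNA-binding protein LARP6. They were taken by gene symbol from a count table of 28675 genes, and all 7 were found. Messenger RNA was sequenced from cells with LARP6 overexpression (3 libraries) and from cells with a no-load control (3 libraries), all otherwise of the same line. The labels give neither the vector or promoter that drives LARP6 nor whether the cells are a clone. They also do not state that replicate libraries were grown as separate cultures, so the p-values cover library-to-library spread, part or all of which may be technical. The study asks how LARP6 acts on RNA in this cancer, and the values below concern RNA levels per gene, not splicing.

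CD44 is the cell-surface receptor for the matrix sugar hyaluronan, and CD24 is a small surface sialoglycoprotein; breast cancer stem cells are commonly sorted as CD44 high and CD24 low. PROM1 (CD133) is a membrane glycoprotein used to mark stem cells of several tumours. ALDH1A1 and ALDH1A3 oxidise retinaldehyde to retinoic acid and give the dye-based aldehyde dehydrogenase signal by which stem-like cells are also sorted. SOX9 and MYC are transcription factors that act in mammary progenitors and in tumour growth.

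The promoters of CD44 and CD24 are shown because these genes define the sorting phenotype. Both are from RefSeq on GRCh38.p14, written 5′ to 3′ on the gene's own strand from 250 bases before to 50 bases after the RefSeq start, and capitals mark the GC box GGGCGG on either strand. The CD44 window lies at chr11:35138921-35139220 on the plus strand, and the CD24 window, the first of 3 listed, at chr6:106975578-106975877 on the minus strand. The RefSeq start of CD44 lies downstream of the gene start in GENCODE v29, so its window falls within the gene as GENCODE v29 places it.
CD44: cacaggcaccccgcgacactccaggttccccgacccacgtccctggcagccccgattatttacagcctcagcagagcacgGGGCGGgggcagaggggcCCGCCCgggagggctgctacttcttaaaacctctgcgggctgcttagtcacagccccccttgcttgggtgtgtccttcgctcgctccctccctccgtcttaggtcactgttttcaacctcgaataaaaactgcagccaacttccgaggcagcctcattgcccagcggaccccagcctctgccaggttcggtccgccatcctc
CD24: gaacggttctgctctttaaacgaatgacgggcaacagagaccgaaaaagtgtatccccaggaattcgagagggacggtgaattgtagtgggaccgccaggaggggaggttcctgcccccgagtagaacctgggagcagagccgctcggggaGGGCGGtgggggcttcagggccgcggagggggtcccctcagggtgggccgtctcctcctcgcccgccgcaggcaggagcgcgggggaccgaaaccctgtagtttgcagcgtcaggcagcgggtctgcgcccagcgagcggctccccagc
Both windows are rich in G and C, at 63.3% for CD44 and 66.7% for CD24, against a median of 58.7% over 35116 promoters of that length. The GC box occurs in 45% of those promoters. The E-box CACGTG, a letter pattern bound by MYC with MAX, was found in neither window and occurs in 7.26% of promoters. The E-box is its own reverse complement. No binding or promoter activity was measured here, and SOX9 and MYC have no sequence shown.

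Total counts ran from 29409101 to 31648120 in LARP6 libraries and from 29723790 to 33387050 in control libraries. LARP6 itself had 1990, 2200 and 2130 CPM in LARP6 libraries, against 44.2, 40.7 and 43.3 CPM in control libraries, so every library was on the side its label gives; CPM is the read count relative to the library's TMM-scaled total, on the usual depth-normalised scale. Of the 11 identity genes of the line, 9 were tested, 2 were called higher and 0 lower in LARP6 libraries. These were the mesenchymal gene VIM at 3350 and 3150 CPM (log2 fold change 0.09, edgeR adjusted p = 0.0166) and the caveolin gene CAV1 at 534 and 503 CPM (0.09, adjusted p = 0.032) in LARP6 and control libraries. The estrogen receptor gene ESR1 was at 0.011 and 0 CPM. The list also held the hormone receptor gene PGR, ERBB2 and the epithelial genes CDH1, KRT8 and KRT18. Mean levels of the 9 tested genes were 7.6 to 3250 CPM, so these genes were not all near 0 as ESR1 was. Of 14 markers of leukocytes, fibroblasts and endothelium, 12 were in the table. Their summed level was 20.5 to 23.6 CPM in LARP6 libraries and 21.6 to 23.1 CPM in control libraries. Of these, 8 had enough reads to be tested, at mean levels of 0.348 to 5.7 CPM, and 0 were called. The lowest levels are not typical of the list: CD3E (T cells) and CD163 (macrophages) were at 0 CPM in LARP6 libraries and at 0.0113 and 0.0109 CPM in control libraries.

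SOX9 rose by 9.92% in the LARP6 libraries, and it was the marker past the threshold of an adjusted p below 0.05. Of the other markers, CD44, CD24, MYC and ALDH1A3 had lower means and ALDH1A1 a higher mean in LARP6 libraries, none of them called. PROM1 was at the detection limit and was not tested. Thus 1 of 6 tested markers was called higher and 0 lower, where 6.03% of all 16226 tested genes were called, 2.43% higher and 3.6% lower. Higher genes made up 40.3% of all calls, and 69.4% when libraries were scaled by size only. SOX9 was called in 14 of 19 alternatives and lost in the other 5, DESeq2 (adjusted p = 0.058), both fits on log2 FPKM, and the fits without LARP6 library 1 or control library 2. The median log2 fold change of the 6 was -0.05, beside 0 for all tested genes, whose median absolute log2 fold change was 0.08. In bulk RNA, a change in the share of cells that express a marker and a change in RNA per cell cannot be told apart.

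The markers spanned a wide range of levels. By the authors' FPKM, which is scaled by gene length and so allows genes to be compared, CD44 stood at 64.4 ± 1.91 in LARP6 libraries and 66.6 ± 0.654 in control libraries (SD, n = 3 each), at percentile 96.3 of protein-coding genes by its mean over all libraries. MYC followed at 18.2 ± 0.01 and 18.7 ± 0.486 FPKM, SOX9 at 16.4 ± 0.678 and 14.7 ± 0.48 FPKM, and CD24 at 10.7 ± 0.127 and 10.9 ± 0.284 FPKM, each in LARP6 and then control libraries. ALDH1A3 was at 1.65 ± 0.135 and 1.66 ± 0.159 FPKM, ALDH1A1 at 0.583 ± 0.156 and 0.553 ± 0.16 FPKM, and PROM1 was listed at 0 or 0.01 FPKM in every library. The ranges over the 6 libraries did not overlap between any neighbours in this order.

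**Figure D1:**
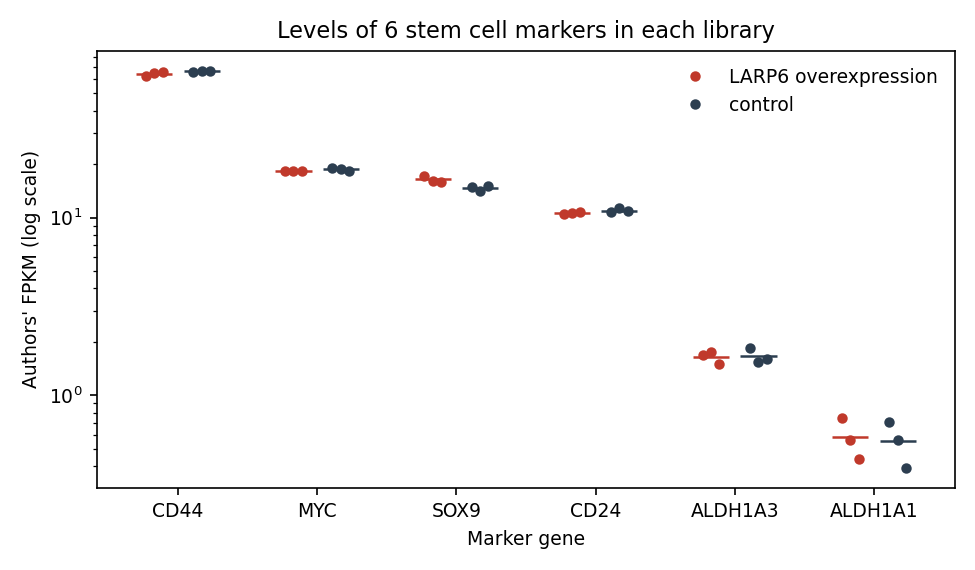
Authors' FPKM (log axis) of 6 markers, with 1 point per library and a line at the mean of each group, LARP6 overexpression on the left of each pair and control on the right. CD44 lies highest near 65 FPKM and ALDH1A1 lowest below 1 FPKM in all 6 libraries; PROM1, listed at 0 or 0.01 FPKM, is not drawn.

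CD44 (ENSG00000026508.20) lies on chromosome 11 from 35138870 to 35232402 on the plus strand of GRCh38 in GENCODE v29. It had 702, 729 and 740 CPM in LARP6 libraries 1, 2 and 3, against 749, 769 and 766 CPM in control libraries 1, 2 and 3. LARP6 library 1 was the lowest of the 6, and the groups did not overlap in CPM. The change was -4.93% (95% interval -8.19% to -1.55%; log2 fold change -0.07 ± 0.03, SE). It missed the threshold, at an edgeR adjusted p = 0.0672. It was called in 5 of 19 alternatives, among them limma-voom (adjusted p = 0.0342), GC and length offsets (log2 fold change -0.11, adjusted p = 0.000161) and the fit without LARP6 library 3 (adjusted p = 0.0281), within a range of 0.000117 to 0.61 over all 19. Other edgeR fits were weaker. The log2 fold change was -0.05 without LARP6 library 1 (adjusted p = 0.422) and -0.05 with scaling by library size only (adjusted p = 0.232). Without control library 2 it was -0.07 (adjusted p = 0.252). In FPKM the groups overlapped, with 62.32, 65 and 66.02 in LARP6 libraries and 65.93, 67.22 and 66.76 in control libraries. The antisense gene CD44-AS1, on the opposite strand within CD44, had 2.27 CPM in LARP6 and 2.69 CPM in control libraries and was not called; the strand setting of the counting is not given, and this level is small beside that of CD44.

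CD24 (ENSG00000272398.6; chromosome 6, 106969831 to 106975627, minus strand) had 36.8, 36.9 and 37.5 CPM in LARP6 libraries, against 37.8, 40 and 38.5 CPM in control libraries. Every LARP6 library was below every control library in CPM, by as little as 37.5 against 37.8 CPM, and in FPKM the groups overlapped. The change was -4.32% (95% interval -10.8% to 2.62%; edgeR adjusted p = 0.544), which missed the threshold. Of the stretches of 100 bases in its longest transcript, 0.704% occur also in its pseudogene CD24P4, so reads there could be shared. The longest transcripts of the other 6 markers had no such stretch in transcripts of another gene, compared in the same direction. Reverse complements were not searched, so sequence shared with antisense genes such as CD44-AS1 was not covered.

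The ratio of CD44 to CD24, the pair behind the sorting phenotype, differed by less than the spread between libraries. CD44 stood at 5.91, 6.11 and 6.12 times the CD24 level in FPKM in LARP6 libraries 1, 2 and 3, against 6.14, 5.96 and 6.16 times in control libraries. The log2 ratio was 2.6 ± 0.03 in LARP6 libraries and 2.61 ± 0.03 in control libraries (SD, n = 3 each; difference -0.01; exact permutation test, two-sided, p = 0.5, where 3 against 3 libraries cannot go below 0.1). Both genes were a few percent lower in LARP6 libraries, and their ratio ranged over 5.91 to 6.16 in all.

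PROM1 (ENSG00000007062.12; chromosome 4, 15963076 to 16084378, minus strand) had 2, 0 and 0 reads in LARP6 libraries and 1, 0 and 3 reads in control libraries. Every library was thus at or under 3 reads, which stands for 0.0914 to 0.102 CPM at these depths. A difference between the groups was not detectable at this depth, and no fold is given.

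ALDH1A3 (ENSG00000184254.17; chromosome 15, 100877714 to 100916626, plus strand), the retinaldehyde-oxidising enzyme with the higher level of the pair, had 10.2, 10.5 and 8.95 CPM in LARP6 libraries, against 11.2, 9.39 and 9.78 CPM in control libraries. The groups overlapped, and the change was -2.51% (95% interval -14.4% to 11%; edgeR adjusted p = 0.883). ALDH1A1 (ENSG00000165092.13; chromosome 9, 72900662 to 73080442, minus strand) rested on few reads, with 72, 54 and 44 in LARP6 libraries, against 70, 54 and 42 in control libraries. Its levels were 2.41, 1.77 and 1.39 CPM in LARP6 libraries and 2.3, 1.83 and 1.28 CPM in control libraries, so the spread within a group, 27.9% and 28.3% of the mean, was far above the difference between groups. Its change was 3.2% (95% interval -22.9% to 38.1%; edgeR adjusted p = 0.941). The exact 95% Poisson interval was 56.3 to 90.7 reads for the 72 of LARP6 library 1 and 32 to 59.1 reads for the 44 of LARP6 library 3. These bounds hold counting error alone, and the labels mention no molecular identifiers.

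Per length, ALDH1A3 exceeded ALDH1A1 in each library, at 2.25, 3.14 and 3.41 times its FPKM in LARP6 libraries and 2.59, 2.75 and 4.1 times in control libraries. The log2 ratio was 1.53 ± 0.32 in LARP6 libraries and 1.62 ± 0.36 in control libraries (SD, n = 3 each), a difference within the spread (exact permutation test, two-sided, p = 0.8). Both of these enzymes were outranked in FPKM by other aldehyde dehydrogenases, among them the mitochondrial ALDH1B1 at 19.8 and 20.6 FPKM and ALDH9A1, an enzyme of carnitine synthesis, at 26 and 25.8 FPKM in LARP6 and control libraries, named after their values were seen.

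SOX9 (ENSG00000125398.8; chromosome 17, 72121020 to 72126420, plus strand) had 76.1, 70.9 and 70.4 CPM in LARP6 libraries, against 66.2, 63.5 and 67.8 CPM in control libraries. Every LARP6 library was above every control library, both in CPM and in FPKM, and LARP6 library 1 was the highest. The mean was 72.5 ± 3.15 CPM in LARP6 libraries and 65.9 ± 2.17 CPM in control libraries (SD, n = 3 each), a log2 fold change of 0.14 ± 0.04 (SE; 95% interval of the change 3.99% to 16.2%; edgeR adjusted p = 0.0238). The call was lost without LARP6 library 1 (log2 fold change 0.1, adjusted p = 0.271), without control library 2 (0.11, adjusted p = 0.168), with DESeq2 (0.14, adjusted p = 0.058) and on log2 FPKM (adjusted p = 0.324 and 0.27), within a range of 0.00694 to 0.324 over 19 alternatives, all of them positive in direction. The antisense gene SOX9-AS1, which overlaps SOX9, had 7 to 22 reads per library, where SOX9 had 1875 to 2271.

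MYC (ENSG00000136997.21; chromosome 8, 127735434 to 127741434, plus strand) had 94.2, 93.8 and 93.7 CPM in LARP6 libraries, against 99.7, 99.2 and 95.7 CPM in control libraries. The LARP6 libraries had a coefficient of variation of 0.261% and all lay below the lowest control library. The change was -4.37% (95% interval -8.94% to 0.421%; edgeR adjusted p = 0.321) and was not called. In FPKM the groups overlapped, since control library 3 was at 18.19, and the LARP6 libraries at 18.23, 18.21 and 18.22.

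**Figure D2:**
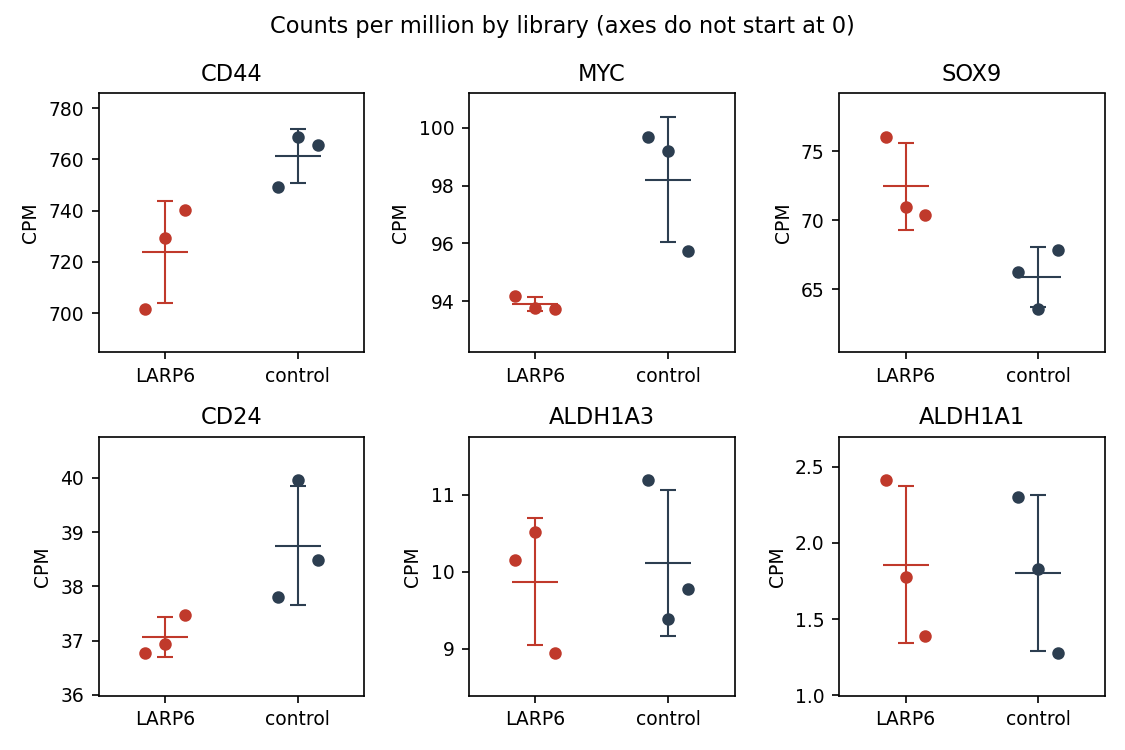
CPM of 6 markers by library, 1 panel per gene with its own vertical axis that does not start at 0; points are libraries 1, 2 and 3 from left to right, and the bar and whiskers are the group mean and SD (n = 3). The 3 LARP6 points (left) of SOX9 lie above the 3 control points (right), those of CD44, MYC and CD24 lie below, and those of ALDH1A3 and ALDH1A1 overlap the controls.

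Groups that do not overlap were seen for 4 of the 6 tested markers in CPM (SOX9, CD44, MYC and CD24), where 22.3% of all tested genes had such groups, and for 1 of the 6 in FPKM (SOX9), where 21.6% had. The count thus differed between the 2 scales. The changes of the 6 lay between -4.93% and 9.92%. Beside them, the median change among all called genes was 16% for higher genes and -9.04% for lower genes.

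**Figure D3:**
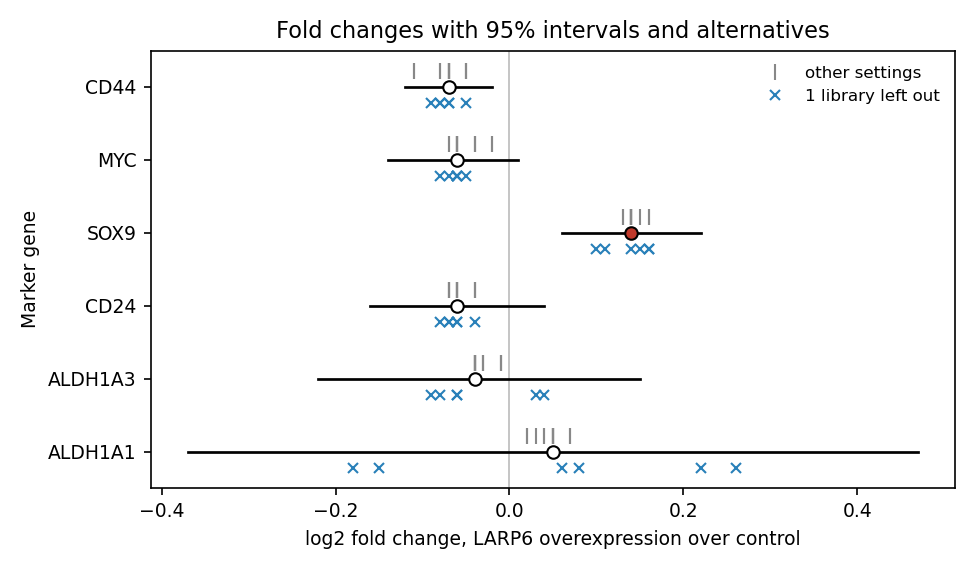
Log2 fold change of 6 markers, LARP6 overexpression over control, as a circle with its 95% interval (filled where called), with grey ticks for 13 other settings and blue crosses for the 6 fits that leave out 1 library. The circle, ticks and crosses of SOX9 (0.14) lie above 0, and those of CD44 (-0.07), MYC and CD24 lie below 0. The intervals of MYC (-0.14 to 0.01) and CD24 (-0.16 to 0.04) cross 0. That of ALDH1A1 is the widest, from -0.37 to 0.47.

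The genes whose profile over the 6 libraries was most like that of SOX9, by Pearson's correlation of log2 CPM among 9284 protein-coding genes of at least 10 CPM, were CSRNP1 (r = 0.9863), ARMCX3 (r = 0.9746) and TRIM6-TRIM34 (r = 0.968). CSRNP1 encodes a nuclear protein and ARMCX3 a mitochondrial outer-membrane protein. CSRNP1 had 14, 12.8 and 13 CPM in LARP6 libraries, against 11.8, 11.3 and 11.9 CPM in control libraries. None of the 3 was called by edgeR (adjusted p = 0.212, 0.0772 and 0.167), and with 6 libraries that share the group difference, 18 genes reached a correlation above 0.95. TRIM6-TRIM34 is a read-through gene whose reads can be shared with TRIM6 and TRIM34.

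Related genes were counted in 10 lists. Of 174 tested genes other than the markers, 7 rose (4.02%) and 10 fell (5.75%), beside 2.43% and 3.6% of all tested genes. Among other stem and progenitor markers, 2 of 15 tested rose and 0 fell (median log2 fold change 0.05). ABCG2, the efflux pump behind the side-population assay, was at 10.2 ± 0.508 CPM in LARP6 libraries and 8.15 ± 0.641 CPM in control libraries (SD, n = 3 each), a log2 fold change of 0.33 ± 0.1 (SE; adjusted p = 0.0228 by edgeR). ITGA6, the integrin CD49f of mammary basal cells, was at 226 ± 4.5 and 211 ± 10.4 CPM (log2 fold change 0.1 ± 0.03; adjusted p = 0.0201). The calls of both were lost with DESeq2, without LARP6 library 2 and without control library 3, and that of ITGA6 also without LARP6 library 1. With GC and length offsets both calls were lost too, at a log2 fold change of 0.28 for ABCG2 (adjusted p = 0.0933) and 0.05 for ITGA6 (adjusted p = 0.39). EPCAM, an epithelial adhesion protein sorted together with CD49f, was at 15.3 CPM in each group, and BMI1, a Polycomb repressor of stem cells, at 53.3 and 51.9 CPM in LARP6 and control libraries, neither called; both were named after their values were seen.

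Of the pluripotency factors, 2 of 10 were tested and KLF4 rose, with 62.3, 60.1 and 62.8 CPM in LARP6 libraries, against 51.3, 50.7 and 53.3 CPM in control libraries (log2 fold change 0.25 ± 0.04, SE; edgeR adjusted p = 6.51e-06). The groups were well apart for this gene. SOX2 was at 0.568 and 0.373 CPM in LARP6 and control libraries and was not called. The other 8, POU5F1 among them, were not tested. In the SOX family, 0 of 10 other members were called (median 0.22), at mean levels from 0.343 to 50 CPM. The median thus includes folds on few reads, such as those of SOX6 with 14 to 32 reads per library. The smallest p-values were those of SOX12 at 38.5 ± 2.55 and 42.1 ± 0.767 CPM (adjusted p = 0.113) and SOX6 at 0.871 ± 0.166 and 0.597 ± 0.165 CPM (adjusted p = 0.357).

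Of 13 other aldehyde dehydrogenases, 1 rose and 0 fell (median log2 fold change -0.04). This was ALDH3A2, the fatty aldehyde dehydrogenase, at 78.7 ± 1.2 CPM in LARP6 libraries and 71.9 ± 2.05 CPM in control libraries (SD, n = 3 each), a log2 fold change of 0.13 ± 0.04 (SE; adjusted p = 0.0252 by edgeR), lost without any 1 of the LARP6 libraries, without control library 2 and with GC and length offsets (adjusted p = 0.0635). Retinoic acid is the product of ALDH1A1 and ALDH1A3, and of 17 tested genes for its synthesis, carriers, receptors and targets, 0 rose and 2 fell (median -0.04). TGM2, a transglutaminase gene known to be induced by retinoic acid, was at 560, 562 and 595 CPM in LARP6 libraries, against 686, 702 and 702 CPM in control libraries (log2 fold change -0.28 ± 0.03; adjusted p = 9.21e-18). DHRS3, which turns retinaldehyde back to retinol, was at 16.7 ± 1.15 and 20.8 ± 1.36 CPM (-0.31 ± 0.07; adjusted p = 0.00166), and its call was lost without LARP6 library 1. The receptor genes RARA, RARG, RXRA and RXRB were not called.

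Of 15 genes of the MYC family and MAX network, 0 rose and 1 fell (median -0.01). MAX, the partner with which MYC binds DNA, was at 84.8 ± 2.36 CPM in LARP6 libraries and 91.8 ± 1.11 CPM in control libraries (SD, n = 3 each), a log2 fold change of -0.12 ± 0.04 (SE; adjusted p = 0.0405 by edgeR), a call lost without any 1 of the 6 libraries. Of 33 MYC target genes, 0 rose and 5 fell (median -0.04). They were the spermidine synthase gene SRM at 194 ± 5.32 and 212 ± 2.76 CPM (log2 fold change -0.13 ± 0.03), the transferrin receptor gene TFRC at 187 ± 9.6 and 204 ± 8.75 CPM, the cell-cycle factor gene E2F1 at 119 ± 3.16 and 129 ± 1.98 CPM, the nucleolar methyltransferase gene FBL at 235 ± 1.81 and 251 ± 3.89 CPM, and RRP9, a nucleolar protein gene outside the naming rule, at 46 and 50.7 CPM, each in LARP6 and then control libraries. For TFRC the groups overlapped in CPM and FPKM, with LARP6 library 1 at 199 CPM and control library 3 at 194 CPM. The call of TFRC was lost without LARP6 library 2 or 3 or control library 1 or 2. That of E2F1 was lost without LARP6 library 1 or 2 or control library 1 or 3, and that of FBL without LARP6 library 1 or 2 or control library 2 or 3. With GC and length offsets the calls of SRM (log2 fold change -0.05, adjusted p = 0.435), E2F1 (-0.05, adjusted p = 0.493) and FBL (-0.04, adjusted p = 0.448) were lost. The other 28 were not called, the nucleolar protein genes NCL and NPM1 among them, and 1 of the list (SRM) was called when libraries were scaled by size only, and 1 (TFRC) with GC and length offsets.

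Of 21 tested ligands, anchors, sheddases and splice regulators of CD44 and CD24, 0 rose and 1 fell (median 0). CEMIP, which takes part in hyaluronan breakdown, was at 61.9, 64.9 and 67.1 CPM in LARP6 libraries, against 70.4, 76.8 and 77 CPM in control libraries (log2 fold change -0.21 ± 0.04, SE; edgeR adjusted p = 0.000127). The hyaluronan synthase HAS2, the CD44 anchors EZR and MSN, the sheddase ADAM10 and the epithelial CD44 splicing regulator ESRP2 were not called. In the WNT list 2 of 28 rose and 1 fell (median 0). The receptor gene FZD2 was at 45.6 ± 2.78 and 51.7 ± 0.941 CPM (-0.18 ± 0.05; adjusted p = 0.00635), the R-spondin receptor gene LGR4 at 59.9 ± 2.32 and 54.5 ± 0.806 CPM (0.14 ± 0.04; adjusted p = 0.0382) and the WNT antagonist gene DKK1 at 323 ± 4.31 and 305 ± 10.4 CPM (0.08 ± 0.03; adjusted p = 0.0489), each in LARP6 and then control libraries. The call of FZD2 was lost without LARP6 library 2, that of LGR4 without LARP6 library 1 or 3 or control library 1 or 2, and that of DKK1 without any 1 library other than control library 3. With GC and length offsets all 3 calls were lost, at -0.11 for FZD2 (adjusted p = 0.191), 0.08 for LGR4 (adjusted p = 0.353) and 0.07 for DKK1 (adjusted p = 0.107). In the NOTCH and Hedgehog list, 1 of 21 rose and 0 fell (median 0.03): the NOTCH ligand gene JAG1 had 104, 108 and 106 CPM in LARP6 libraries, against 94.2, 93.3 and 96.4 CPM in control libraries (0.16 ± 0.04; adjusted p = 0.000671).

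**Figure D4:**
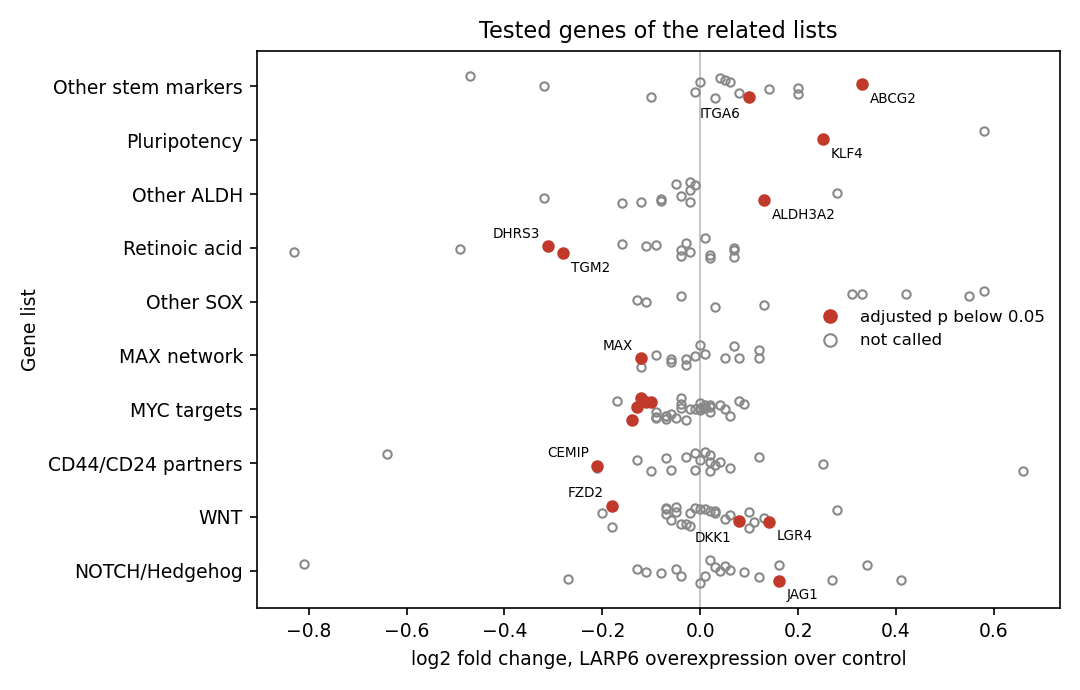
Log2 fold change (LARP6 overexpression over control) of the tested genes in 10 related lists, 1 row per list, with filled points for genes past the threshold and open points for the others; vertical position within a row is random, and the 5 called MYC targets are not labelled. Called genes lie between -0.31 (DHRS3) and 0.33 (ABCG2).

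Of the 16 called list genes named by the rule, KLF4, TGM2, CEMIP and JAG1 kept their call in every alternative on counts, while 11 lost theirs without at least 1 library, 10 with GC and length offsets and 5 with DESeq2. List genes given above only as not called were named after their values were seen.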

How the data were processed

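The authors deposited whole-number read counts per gene, and separately FPKM values per gene (scaled by gene length and library size), for the same 6 libraries. The submitters' processing notes name HISAT2, DESeq2 and GRCh38; which counter, strand setting and annotation made the tables is not given in the sources used here. Per the labels' protocols, libraries kept strand and were read as pairs of 150 bases. The deposited counts were tested by edgeR 4.0.16 (R 4.3.3) with its expression filter, TMM scaling, the robust quasi-likelihood test without covariates and Benjamini-Hochberg adjustment over all 16226 tested genes. Adjusted p-values come from it except where another tool is named. Ratios were tested on log2 FPKM by exact permutation. Alternatives were limma 3.58.1 (voom, or log2 FPKM plus 1 or 0.1), DESeq2 1.42.0, other scalings and filters, a replicate block, GC and length offsets, and each library left out in turn. The markers and gene lists were chosen with earlier results of these data known. Named genes are LARP6, the 7 markers, up to 4 called genes per list with the smallest p (or 2 where none was called) and the 3 genes most like a called marker; others are said to be chosen later. GENCODE v29 on GRCh38 held 97% of identifiers and gave coordinates, length and GC content. The tests were checked on simulated counts, where false calls by edgeR were above the nominal share. Calls with an edgeR adjusted p near the threshold, that of SOX9 among them, are to be read with this limit.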

Additional observations from a re-analysis of the deposited data

How the results depend on the processing

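All genes passing the threshold numbered 979, but 617 with DESeq2, 3 and 23 by limma on log2 FPKM plus 1 and plus 0.1, 556 with GC and length offsets and 593 with these and a replicate block; without 1 library they numbered 456 to 1040, the count being 459 where LARP6 library 1, 456 where LARP6 library 2 and 650 where control library 2 was left out. At an unadjusted p below 0.05 the FPKM fits held 2755 and 2871 of 28339 genes, with no expression filter, against 3085 of 16226 for edgeR. Called markers numbered 1, but 2 with limma-voom and with the offsets (CD44 added), 0 with DESeq2 and with both FPKM fits, and 0 to 2 without 1 library. Both FPKM fits called 0 genes of each list. DESeq2 called 0 other stem cell markers, 0 MAX network genes and 1 WNT gene. The offsets, with or without the block, called 1 other stem cell marker (CD9, neither ABCG2 nor ITGA6), 0 aldehyde dehydrogenases, 0 MAX network genes, 2 CD44 and CD24 partners (CEMIP with ADAM10, or with HNRNPM under the block) and 0 WNT genes; 1 MYC target (TFRC) was called with the offsets and 3 (with LDHA and NPM1) with the block added. Scaling by library size only left 0 MAX network genes and 1 MYC target and gave 2 NOTCH and Hedgehog genes; no filter left 0 MAX network genes and 1 WNT gene. Without 1 library, calls ranged over 0 to 2 other stem cell markers, 0 to 1 aldehyde dehydrogenases, 1 to 2 retinoic acid genes, 0 to 1 SOX genes, 0 to 1 MAX network genes, 1 to 5 MYC targets and 1 to 3 WNT genes. Libraries with the same number correlated at 0.103, 0.0568 and 0.25 in their deviations, and the numbers were not taken to pair them. LARP6 libraries 1 and 3 correlated most with the control library of their own number, and LARP6 library 2 with control library 1 (0.0783). Library 3 of either group correlated at -0.165 to -0.117 with libraries of another number in the other group. The replicate block gave 1345 calls, 2 markers (CD44 at adjusted p = 0.00764, and SOX9), 2 aldehyde dehydrogenases and 9 MYC targets. With the offsets it gave 2 markers (CD44 at adjusted p = 0.000117). The ALDH1A1 log2 fold change was -0.18 to 0.26 without 1 library (-0.18 without LARP6 library 1, -0.15 without control library 3), and that of ALDH1A3 -0.09 to 0.04 (0.03 without LARP6 library 3, 0.04 without control library 1). The difference in log2 CD44 to CD24 ratio was -0.02 to 0.01 without 1 library (0.01 without LARP6 library 1), and that of ALDH1A3 to ALDH1A1 -0.22 to 0.11 (0.09 without LARP6 library 1, 0.11 without control library 3). The cause of these shifts was not tested. Depth limits PROM1 and ALDH1A1 most, with at most 3 and 72 reads in a library.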

Other observations

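ALDH1A1 had nearly the same read count in libraries of the same number, at 72 and 70 in LARP6 and control library 1, 54 and 54 in libraries 2, and 44 and 42 in libraries 3, a pattern chosen after its values were seen. ALDH1A3 did not share it, with 303 and 341 reads in libraries 1, 320 and 277 in libraries 2, and 284 and 321 in libraries 3. LARP6 library 1 held both the highest SOX9 level (76.1 CPM) and the lowest CD44 level (702 CPM) of the 6 libraries.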
